A study of Mus musculus with 9 samples.

Results

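The mRNAs of the AMPA and kainate receptor subunits were followed through a pull-down of the RNA-binding protein CELF2. Gria1, Gria2, Gria3 and Gria4 encode the AMPA receptor subunits, and Grik1, Grik2, Grik3, Grik4 and Grik5 encode the kainate receptor subunits. These 9 genes were chosen by family and not by their values, out of 21250 protein-coding genes with at least 1 transcript in the table, and all 9 passed the filter on low counts among the 15263 genes tested. They are represented by 80 of the 107384 transcripts, 42 for the AMPA and 38 for the kainate receptor genes.

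AMPA and kainate receptors are glutamate-gated cation channels that assemble from several subunits and carry fast excitatory signals between neurons. The subunit mix sets how a channel conducts: an AMPA receptor that holds the RNA-edited GluA2 subunit, encoded by Gria2, passes little calcium, and the GluK4 and GluK5 subunits form working kainate receptors only together with GluK1, GluK2 or GluK3. Auxiliary proteins such as the TARPs, cornichons and Shisa proteins for AMPA receptors, and the Neto proteins for kainate receptors, steer the receptors to the synapse and shape their currents. CELF2 is a member of the CELF family, whose proteins bind U- and G-rich RNA and act on splicing in the nucleus and on translation and decay in the cytoplasm.

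RNA was measured in 9 libraries made from the cytoplasmic fraction of the cortex of mice at postnatal day 0. All mice were heterozygous knockins carrying CELF2 p.R493H, a change that leads to the protein's accumulation in the cytoplasm, so no wild-type library enters any comparison and an effect of the knockin cannot be read from these data. Of each fraction, one aliquot was kept as input, and RNA immunoprecipitation (RIP) was done with 10 µg of a rabbit antibody to CELF2 (CELF2-KI RIP) or 10 µg of normal rabbit IgG (IgG RIP) for 3 hours at 4 °C. Each of the 3 groups has 3 libraries, described in the study as biological replicates. A RIP measures RNA that came down with the protein, directly or through a complex. In such bulk material, fewer cells of a type and less RNA per cell cannot be told apart.

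Depth and composition differed between groups. Total estimated counts were 15919600 to 20052716 for CELF2-KI RIP, 17365561 to 28773130 for IgG RIP and 69125700 to 105116427 for input. The transcript of the 45S ribosomal RNA precursor took 34.9%, 32.9% and 10.8% of the counts of IgG RIP 1, 2 and 3, at most 1.76% in CELF2-KI RIP and at most 0.797% in input. Among the subunit genes, the lowest summed count in any library was 339 (Grik1) and the highest was 48662 (Gria1). Marker genes of excitatory neurons (6 genes, such as Tbr1 and Neurod2) summed to 1423 to 2035 CPM (counts scaled to library size by the method given below) in CELF2-KI RIP. Their sums were 668 to 786 in IgG RIP and 800 to 951 in input, with 3 of the 6 called as targets by the rule given below. Markers of inhibitory neurons (6 genes) also summed higher, at 588 to 725 CPM against 330 to 382 and 463 to 479. Radial glia markers (6 genes) ran the other way at 125 to 169 CPM against 303 to 348 and 367 to 385, as did erythroid genes (5 genes) at 92.7 to 95 CPM against 366 to 584 and 877 to 1135. Microglia markers (4 genes, 3 of them tested) summed to 81.2 to 112 CPM in CELF2-KI RIP and to 32.7 to 69.8 CPM over both controls, while astrocyte, oligodendrocyte progenitor and endothelial markers overlapped at least 1 of the controls. These sums do not speak for every gene. Levels were higher over IgG RIP and over input in 5 and 5 of the 6 excitatory and 5 and 4 of the 6 inhibitory neuron markers. For radial glia it was 1 and 1 of 6, and for microglia 2 and 2 of 3 tested. Most of the microglia sum was Cx3cr1, at 77.8 to 108 CPM in CELF2-KI RIP. The other higher microglia marker, Csf1r, was near the floor, with 0 to 3.4 CPM in CELF2-KI RIP and 0 in every input library. Against their lists ran Neurod6 (log2 fold changes of -0.14 and -0.64), Dlx2 (-0.18 and -1.20), Aif1 (-2.28 and -3.06) and Pax6 (0.16 and 0.02). On this scaling the sum of all tested genes was also highest in CELF2-KI RIP. None of the marker lists was at 0 in any group, and the part of cell composition in the results below was not tested.

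The first question was which subunit mRNAs were higher in the CELF2-KI RIP than in both controls. Levels are given as CPM on library sizes scaled by trimmed mean of M-values (TMM). Differences are log2 fold changes with their standard error (SE) and the false discovery rate (FDR), the Benjamini-Hochberg adjusted p of edgeR's quasi-likelihood test over all 15263 genes. A gene was called at an FDR under 0.01 and at least 2-fold. Following the study, a gene called higher than both IgG RIP and input was counted as a target. Of the 9 subunit mRNAs, 1 was a target, against 7.58% of all tested genes. That gene was Grik3, and Grik5 stood just under 2-fold in both comparisons.

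**Figure D1:**
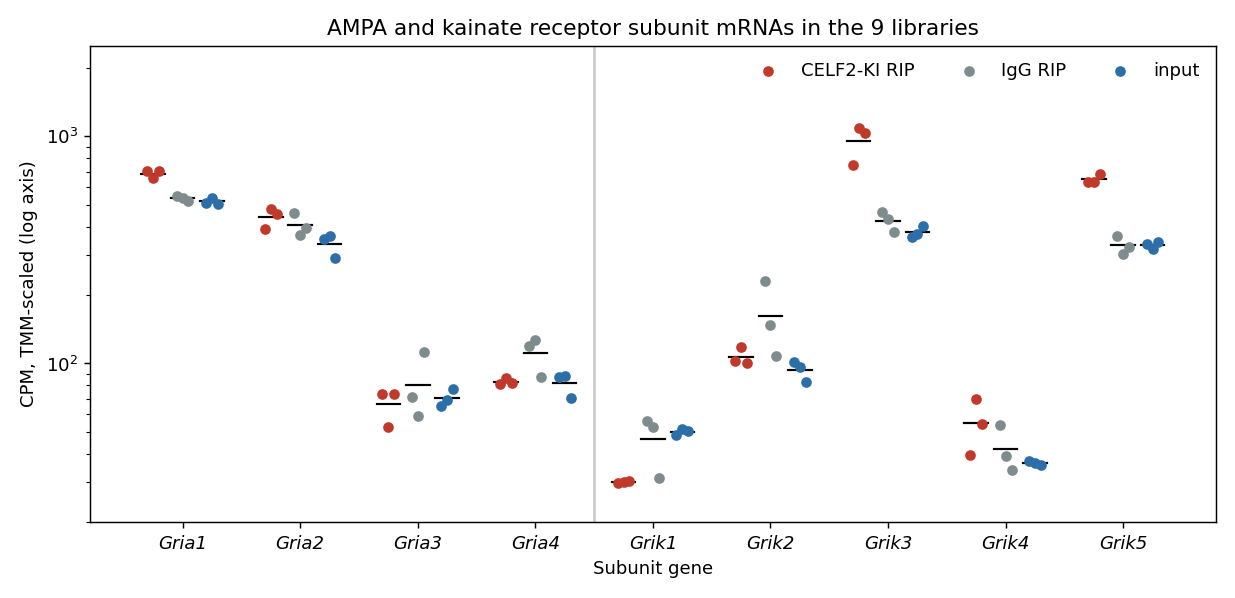
Level of each subunit mRNA in each library, in TMM-scaled CPM on a log axis. Points are single libraries, 3 per group and coloured by group, and black bars are group means. The points of CELF2-KI RIP lie above all 6 controls for Gria1, Grik3 and Grik5 and below all 6 for Grik1. Heights of different genes are not comparable, because CPM is not corrected for transcript length.

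Grik3 encodes GluK3, a kainate receptor subunit of low glutamate sensitivity found before and behind the synapse, and lies at chr4:125490259-125714173 in GRCm38. Its level was 747, 1084 and 1037 CPM in the CELF2-KI RIP libraries, 466, 433 and 377 CPM with IgG and 361, 371 and 404 CPM in input. Each pull-down library exceeded each control, and the lowest of the pull-down libraries was replicate 1. The difference was 1.17 (SE 0.15, FDR 0.000107 by edgeR) over IgG RIP and 1.33 (SE 0.15, FDR 4.22e-05 by edgeR) over input, or 2.25-fold and 2.52-fold. These differences were higher than those of 88.1% and 91.7% of all tested genes. Grik3 stayed a target in all 9 fits that each left out 1 library, and with IgG RIP 3 as the only IgG library the difference was 1.23 (FDR 0.00227 by edgeR). That fit, here and for the other members, takes the spread from the CELF2-KI RIP and input libraries and assumes that the lone IgG library varies like them. It fell below the 2-fold line when libraries were scaled by total counts (0.79 over IgG RIP and 0.86 over input), by TMM over coding and noncoding genes together (0.94 and 0.93) or, over IgG RIP only, by the upper quartile (0.90), with an FDR of at most 0.000515 in each. A test against a 2-fold change itself gave an FDR of 0.226 over IgG RIP and 0.0405 over input.

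Grik5 encodes GluK5, the subunit of high glutamate affinity that joins GluK1, GluK2 or GluK3, and lies at chr7:25009849-25075694. It measured 632, 629 and 683 CPM in CELF2-KI RIP, 366, 304 and 324 CPM with IgG and 335, 318 and 343 CPM in input. CELF2-KI RIP lay above both controls, which overlapped each other. The difference was 0.97 (SE 0.10, FDR 3.27e-05 by edgeR) over IgG RIP and 0.96 (SE 0.10, FDR 2.95e-05 by edgeR) over input. At 1.96-fold and 1.95-fold, Grik5 rose in both comparisons at the FDR threshold but not past the 2-fold line. Zfp574 overlaps one end of Grik5 by annotation, only from 25075674 to 25075694, and had 220 to 1965 counts, against at least 3064 for Grik5. The strand setting of the counting was not given in the sources used here, so reads from a stretch that genes share cannot be told apart. For Grik5 that stretch is a very small part of the gene.

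Gria1 encodes GluA1, the AMPA receptor subunit whose insertion at synapses accompanies potentiation, and lies at chr11:57011571-57330244. It had 701, 655 and 701 CPM in CELF2-KI RIP, 547, 536 and 520 CPM with IgG and 511, 536 and 505 CPM in input. CELF2-KI RIP lay above both controls, which overlapped each other. The rise was 0.36 (SE 0.09, FDR 0.00536 by edgeR) over IgG RIP and 0.41 (SE 0.09, FDR 0.00237 by edgeR) over input. The call over IgG RIP was lost without CELF2-KI RIP 3 (FDR 0.0207), IgG RIP 1 (0.0137), 2 (0.0183) or 3 (0.0142), or input 1 (0.0124) or 2 (0.0523), and the call over input without CELF2-KI RIP 3 (0.0104) or input 1 (0.0173), 2 (0.0362) or 3 (0.0149). Among 13 other settings of the processing, Gria1 stayed under the FDR threshold in 2 over IgG RIP and in 4 over input. These settings include the test against a 2-fold change, which a rise this small could not pass. Under scaling by total counts the sign turned (-0.01 and -0.05), while the median of all tested genes moved from -0.06 to -0.42 over IgG RIP and from 0.19 to -0.27 over input. Relative to that median, Gria1 stood 0.42 higher over IgG RIP and 0.21 to 0.22 higher over input in the 6 settings compared. For Grik3 the values were 1.21 to 1.22 and 1.13 to 1.14. Of these settings, edgeR with DESeq2 size factors and DESeq2 itself share their scaling. A change of scaling moves all genes nearly alike, so this likeness between settings was built in and is no support for either gene.

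Grik1 encodes GluK1, the kainate receptor subunit studied most in interneurons and sensory neurons, and lies at chr16:87895901-88290863. It was the only subunit mRNA below all controls, with 29.7 to 30.3 CPM in CELF2-KI RIP, 55.8, 52.7 and 31.5 CPM with IgG and 48.4, 51.4 and 50.6 CPM in input. The CELF2-KI RIP libraries were nearly alike, and IgG RIP 3 stood close to them. The difference from input was -0.74 (SE 0.19, FDR 0.00661 by edgeR), and the difference from IgG RIP was -0.64 (SE 0.19, FDR 0.0164 by edgeR) and did not pass. Without IgG RIP 3 the latter was -0.86 (FDR 0.000118 by edgeR), and with IgG RIP 3 as the only IgG library it was -0.18 (FDR 0.302 by edgeR). The call against input was lost in each of the 6 fits without a CELF2-KI RIP or an input library, with FDRs of 0.0123 to 0.0220. With the replicate number as a block over all 3 groups, it missed the threshold at -0.74 (FDR 0.0107 by edgeR). Several annotated noncoding genes lie within Grik1, and none of them had more than 46 counts in a library.

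The other subunit mRNAs did not pass the threshold in either comparison. Gria2, which encodes the calcium-limiting GluA2 subunit, had 390, 476 and 456 CPM in CELF2-KI RIP, 459, 366 and 395 CPM with IgG and 353, 366 and 291 CPM in input. Its CELF2-KI RIP libraries lay above all input libraries and overlapped IgG RIP. The difference was 0.39 over input (SE 0.13, FDR 0.0264 by edgeR) and 0.12 over IgG RIP (SE 0.13, FDR 0.486 by edgeR). The order of the group means for Gria2 was CELF2-KI RIP, IgG RIP, input, and neither neighbouring pair in that order differed past the threshold.

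Grik4, which encodes GluK4, a high-affinity partner subunit like GluK5, had 39.6, 70.0 and 53.9 CPM in CELF2-KI RIP, 53.3, 39.3 and 33.9 CPM with IgG and 37.3, 36.4 and 35.6 CPM in input. CELF2-KI RIP overlapped IgG RIP, and its lowest library lay only slightly above the input libraries. Its difference was 0.58 over input (SE 0.22, FDR 0.0384 by edgeR) and 0.37 over IgG RIP (SE 0.22, FDR 0.176 by edgeR).

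Gria3, the X-linked AMPA receptor subunit gene for GluA3, had 73.2, 52.7 and 73.1 CPM in CELF2-KI RIP, 71.0, 58.6 and 112 CPM with IgG and 65.1, 69.0 and 77.0 CPM in input. The groups overlapped, with differences of -0.28 over IgG RIP (95% interval -0.79 to 0.22) and -0.09 over input (-0.59 to 0.42). Gria4, which encodes GluA4, a subunit prominent in interneurons and in early development, had 81.0, 86.2 and 81.9 CPM in CELF2-KI RIP, 119, 127 and 86.9 CPM with IgG and 86.8, 87.8 and 70.4 CPM in input. CELF2-KI RIP lay below every IgG RIP library but within the range of input, with differences of -0.42 (SE 0.15, FDR 0.0392 by edgeR) and 0.02 (95% interval -0.31 to 0.36). The annotated noncoding gene Gm46101 lies within Gria4 and had 84 to 434 counts, against at least 917 for Gria4. Grik2, which encodes GluK2, a core kainate receptor subunit of principal cells whose mRNA is edited, had 102, 118 and 101 CPM in CELF2-KI RIP, 231, 148 and 107 CPM with IgG and 101, 96.6 and 82.5 CPM in input. Here the IgG RIP libraries were the most scattered, and the difference of CELF2-KI RIP was -0.60 over IgG RIP (SE 0.23, FDR 0.0502 by edgeR) and 0.19 over input (95% interval -0.32 to 0.71).

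For Grik1, Grik2 and Gria4, IgG RIP 3, the IgG library with the smallest share of the 45S transcript, had the lowest level of the IgG group and lay nearest to CELF2-KI RIP. With it as the only IgG library, the difference over IgG RIP was -0.11 (FDR 0.589 by edgeR) for Grik2 and -0.18 (FDR 0.393 by edgeR) for Gria4. For Gria3, whose level in IgG RIP 3 was 112 CPM, the difference was -0.86 (FDR 0.00906 by edgeR), a value that rests on that 1 library. The part of ribosomal RNA in these values was not tested.

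**Figure D2:**
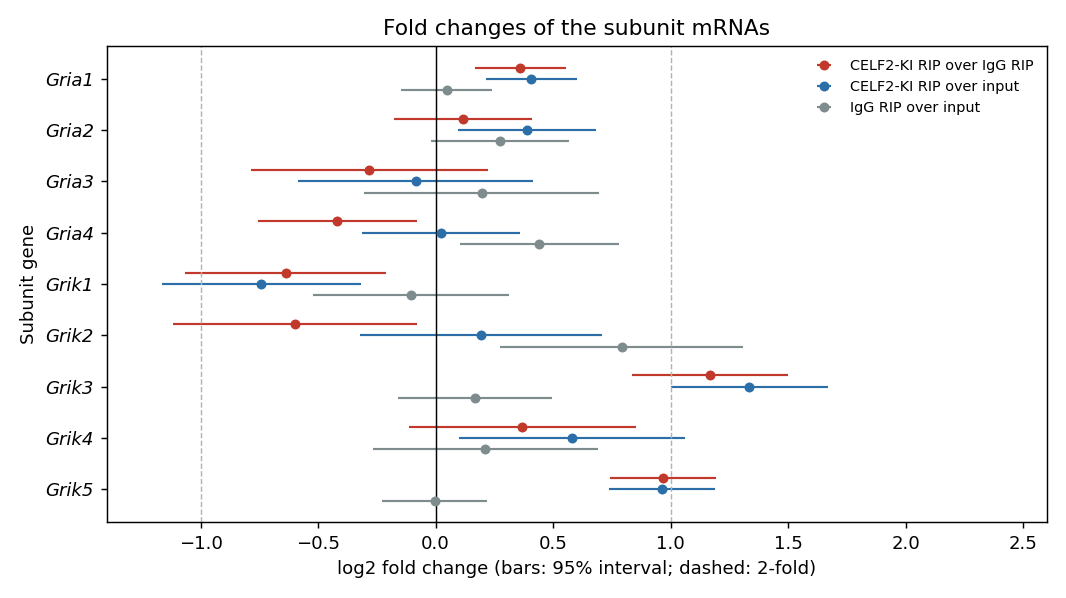
Log2 fold changes of the 9 subunit mRNAs in CELF2-KI RIP over IgG RIP, CELF2-KI RIP over input and IgG RIP over input, from a single edgeR fit over 9 libraries, with 95% intervals as bars. Dashed lines mark 2-fold. Grik3 lies past 2-fold in both comparisons of CELF2-KI RIP, at 1.17 and 1.33, Grik5 stands just inside it at 0.97 and 0.96, and Grik1 lies on the other side of 0 at -0.64 and -0.74.

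Counted over the family, CELF2-KI RIP over IgG RIP had 1 of 9 members called higher, against 13.4% of all tested genes, and 0 of 9 called lower, against 13.5%. By edgeR at an unadjusted p under 0.05, 3 members were lower (Gria4, Grik1 and Grik2), against 4542 of the 15263 tested genes. DESeq2 also called 0 members lower. Over input, 1 of 9 was called higher, against 14.6%, and 0 of 9 lower, against 15.5%, with 0 called lower by DESeq2. At an unadjusted p under 0.05 by edgeR, 1 was lower over input (Grik1), against 4169 of the 15263 tested genes. With the FDR alone and no fold limit, 3 of 9 were higher over IgG RIP, against 22.9% of genes, and 0 lower, against 19.2%, while over input 3 were higher, against 26.8%, and 1 lower, against 20.1%. The 3 pull-down libraries exceeded all 6 controls for 3 of 9 members, against 25.2% of genes, and lay below all 6 for 1, against 19.9%. With 9 members these counts lie near the background of all genes, and nothing particular to the family is read from them. Its median difference was 0.12 against IgG RIP but 0.39 against input, beside -0.06 and 0.19 for all tested genes.

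The IgG RIP was also compared with input, to show what the control pull-down itself held. By edgeR, 0 of 9 members were called higher, against 6.79% of all genes, and 0 lower, against 5.01%. DESeq2 called 0 in both directions. At an unadjusted p under 0.05 by edgeR, 2 were higher, against 3795 of the 15263 tested genes, and 0 lower, against 3690. Those 2 were Grik2, at 0.79 (SE 0.23, FDR 0.0213 by edgeR), and Gria4, at 0.44 (SE 0.15, FDR 0.0408 by edgeR). For Grik3 this difference was 0.17 (95% interval -0.16 to 0.50) and for Grik5 it was -0.00 (-0.23 to 0.22).

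Shares within a receptor family do not depend on how libraries are scaled. Grik3 made up 48.2%, 56.1% and 54.4% of the counts of the kainate receptor genes in CELF2-KI RIP, 39.8%, 44.3% and 43.2% of those in IgG RIP, and 40.9%, 42.5% and 44.1% of the input's. Each pull-down share exceeded each control share. Grik1 held 1.91%, 1.55% and 1.59% in CELF2-KI RIP, against 3.6% to 5.4% in IgG RIP and 5.47% to 5.88% in input, and Grik2 held 5.29% to 6.61% against 12.3% to 19.7% and 9.0% to 11.5%. For both, every CELF2-KI RIP share lay below every control. The level of Grik2 itself was not below input (0.19), and its share is taken of a sum that Grik3 and Grik5 raised. Grik5, whose level rose with the family sum, kept a share of 32.6% to 40.8%, which overlapped 31.1% to 37.1% in IgG RIP and 36.4% to 37.9% in input. The kainate receptor genes summed to 1550 to 1931 CPM in CELF2-KI RIP, 874 to 1171 CPM with IgG and 874 to 916 CPM in input. Unlike the shares, these sums depend on the scaling, under which the sum of all tested genes was also highest in CELF2-KI RIP.

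The AMPA receptor genes had differences of both signs, positive for 2 of 4 over IgG RIP and 3 of 4 over input, with medians of -0.08 and 0.21. The difference between the AMPA and kainate receptor families was not tested. The AMPA receptor genes summed to 1246 to 1313 CPM in CELF2-KI RIP, 1088 to 1196 CPM with IgG and 943 to 1059 CPM in input, groups that did not overlap. On the same TMM scaling, the sum of all tested genes ran in the same order. It was 1.14e+06 to 1.30e+06 CPM in CELF2-KI RIP, 925960 to 952389 with IgG and 864576 to 893157 in input. The order of the AMPA receptor sums can therefore not be told apart from the scaling. Gria1 held 51.6% to 56.3% of that sum in CELF2-KI RIP, above the 45.7% to 49.3% of IgG RIP and overlapping the 50.3% to 53.5% of input. Gria4 held 6.24% to 6.79%, below 7.80% to 11.6% in IgG RIP and 7.46% to 8.54% in input. Gria2 held 31.3% to 37.5% and overlapped both controls, and Gria3, at 4.15% to 5.88%, lay below the 6.41% to 8.16% of input and overlapped IgG RIP.

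The transcripts of each gene were then examined one by one, because AMPA and kainate receptor genes are spliced into many forms. Of the 80 transcripts, 19 were curated mRNAs (NM), 40 predicted mRNAs (XM) and 21 noncoding. In all, 55 passed the filter, and 11 had a count of 0 in every library. Counts of transcripts that share sequence were divided between them by the pseudoaligner, so they are estimates that trade off against each other, and the biological coefficient of variation was 0.995 over single transcripts against 0.221 over summed genes. TMM was computed anew over transcripts, and all tested transcripts had a median difference of -0.20 against IgG and -0.14 against input. Over IgG RIP, 3 of the 55 transcripts were called higher, against 3.19% of the 39129 tested, and 1 lower, against 3.14%. Fitted with the replicate number as a block, the number called higher was 1. On the scaling of the gene sums, which was chosen after the data were seen, it was 5. Over input, 0 were called higher, against 0.94%, with 7 at an unadjusted p under 0.05 by edgeR and 5 called by DESeq2, and 1 was called lower, against 4.51%.

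In Gria1, 1 curated transcript was called lower than both controls. That transcript, NM_001113325.2, had 156, 120 and 94.4 CPM in CELF2-KI RIP, 253, 289 and 275 CPM with IgG and 255, 311 and 349 CPM in input. No pull-down library reached the level of any control, and the transcript was called lower in both comparisons, at -1.14 (SE 0.20, FDR 0.00763 by edgeR) and -1.30 (SE 0.20, FDR 0.00489 by edgeR). The curated transcript NM_001252403.1 had 367, 297 and 391.7 CPM in CELF2-KI RIP, 177, 129 and 187 CPM with IgG and 256, 222 and 147 CPM in input. It lay above all controls without passing, at 1.10 (SE 0.23, FDR 0.0181 by edgeR) and 0.76 (SE 0.23, FDR 0.0766 by edgeR). As shares of the gene's counts, NM_001113325.2 held 16% to 24.7% in CELF2-KI RIP, 47.1% to 53.9% in IgG RIP and 41.7% to 58.5% in input, and NM_001252403.1 held 55.9% to 66.4%, 24.1% to 35.6% and 24.7% to 41.8%. A test of whether a transcript moved unlike the rest of its gene gave an FDR of 0.0917 over IgG RIP and 0.146 over input for NM_001113325.2 (edgeR's diffSpliceDGE over 32889 transcripts), so the exchange was not called. Sequences of the transcripts were not used here, and which exons set them apart is not stated.

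**Figure D3:**
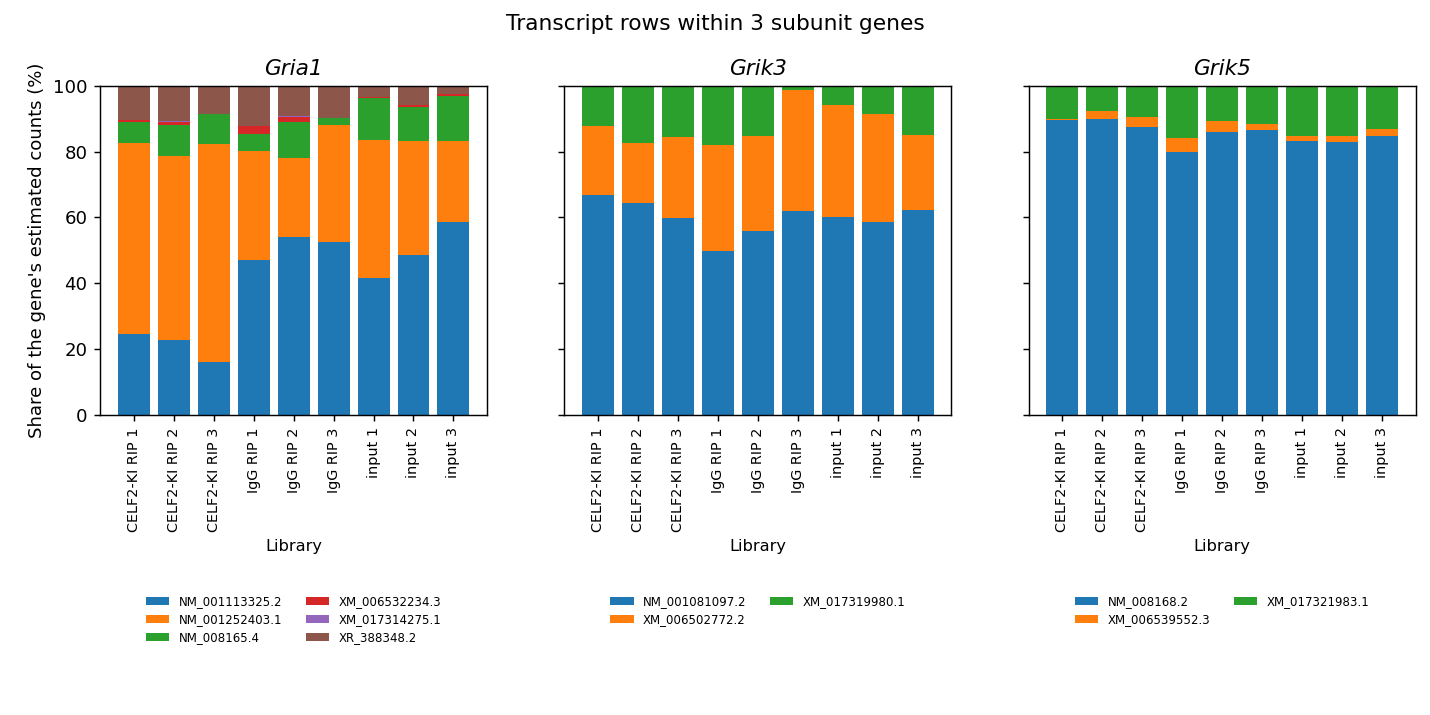
Share of each transcript in the estimated counts of its gene, in percent, for Gria1, Grik3 and Grik5 in each of the 9 libraries. Each bar sums to 100%, and colours are the RefSeq transcripts named under each panel. In Gria1, NM_001113325.2 takes at most 24.7% in CELF2-KI RIP and at least 41.7% in the controls. In Grik5, NM_008168.2 takes 79.9% or more everywhere.

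In Grik3 and Grik5 the curated transcript rose and the predicted ones did not pass. Grik3 NM_001081097.2 had 451, 565 and 522 CPM in CELF2-KI RIP, 228, 241 and 236 CPM with IgG and 260, 259 and 298 CPM in input. It rose by 1.12 over IgG RIP (SE 0.11, FDR 0.000982 by edgeR) and, under 2-fold, by 0.91 over input (SE 0.11, FDR 0.00186 by edgeR). Grik5 NM_008168.2 had 511, 457 and 502 CPM in CELF2-KI RIP, 287, 261 and 284 CPM with IgG and 334, 315 and 344 CPM in input, with differences of 0.82 (FDR 0.00122 by edgeR) and 0.57 (FDR 0.00506 by edgeR). For both transcripts the groups did not overlap. These differences are on the scaling of the transcripts and cannot be set beside those of the summed genes. As a share of Grik3, the curated transcript held 59.9% to 66.8% in CELF2-KI RIP, 49.7% to 61.9% in IgG RIP and 58.5% to 62.3% in input. For Grik5 the curated share was 87.4% to 89.8%, 79.9% to 86.5% and 83.0% to 84.9%. The predicted Grik3 transcript XM_017319980.1 showed how loose single estimates can be, at 82.6, 65.7 and 4.8 CPM in the IgG RIP libraries, and it did not pass in either comparison.

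The other transcripts called over IgG RIP belonged to Gria3 and were weakly counted. NM_001281929.1 was measured at 1.7, 1.5 and 2.4 CPM in the CELF2-KI pull-down, with 2.6, 2.1 and 1.7 CPM in input, and no IgG RIP library had more than 3 counts, so it was at least 8.05-fold higher in CELF2-KI RIP against a floor of 3 counts per IgG RIP library. XM_017318546.1 was measured at 4.7, 4.8 and 7.3 CPM in the CELF2-KI pull-down, with 1.6, 1.6 and 1.8 CPM in input, and was at least 24.1-fold higher than IgG RIP by the same floor. Neither differed past the threshold from input. Of the curated Gria3 transcripts, NM_001290451.1 held 24.5% to 33.2% of the gene in CELF2-KI RIP, below all controls (39.5% to 68.7%), and NM_016886.4 held 54.8% to 58.6%, above all controls (0.0% to 43.1%). IgG RIP 2 gave no count at all to NM_016886.4, while in IgG RIP 3 it held more than NM_001290451.1. Neither share was called as changed by diffSpliceDGE (FDR 0.952 and 0.953 over IgG RIP).

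Over all 55 transcripts, the share of the gene lay above all 6 controls in all 3 CELF2-KI RIP libraries for 6 (1 of Gria1, 1 of Gria2, 2 of Gria3, 1 of Grik2 and 1 of Grik5), against 4.36% of all transcripts compared, and below all 6 for 5, against 4.1%. A transcript above tends to come with another below in the same gene, since shares add up, and 4 of the 5 below lay in genes that also had one above. By diffSpliceDGE, 0 of the 55 had a changed share over IgG RIP, against 0.718% of all transcripts, and 0 over input, against 0.505%, with 9 and 6 at an unadjusted p under 0.05. The lowest FDRs were 0.0574 over IgG RIP, for Gria3 XM_017318546.1, and 0.0171 over input, for Gria2 XM_006501015.3. DESeq2 has no such test and was not run for shares. In Gria2, the curated NM_001039195.1 held 38.7% to 41.3% in CELF2-KI RIP and 42.2% to 60.9% in the controls, and the predicted XM_006501014.2 held 42.1% to 51.3% and 28.1% to 41.0%.

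The genes that serve the same receptors were taken from 5 lists of 40 genes in all, every one of which was tested. Of the 40, 3 were targets, near the 7.58% of all genes. Lower than both controls was 1 of the 40, against 1453 of the 15263 tested genes. The lists were auxiliary subunits of AMPA receptors (14 genes) and of kainate receptors (2), trafficking and anchoring proteins (13), RNA editing enzymes (2) and the NMDA and delta receptor subunits (9). Listed genes other than those higher or lower than both controls are named because they make up a count, and were chosen after their values were seen.

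Frrs1l, which encodes an endoplasmic reticulum factor for the assembly of AMPA receptors, had 176, 232 and 171 CPM in CELF2-KI RIP, 57.6, 64.9 and 60.4 CPM with IgG and 81.6, 72.7 and 61.4 CPM in input. CELF2-KI RIP lay above both controls, which overlapped each other, and Frrs1l rose by 1.66 over IgG RIP (SE 0.15, FDR 1.73e-05 by edgeR) and by 1.43 over input (SE 0.15, FDR 3.06e-05 by edgeR). Among its 14 fellow auxiliary subunits of AMPA receptors, itself included, 5 were called higher over IgG RIP (Frrs1l, Cacng5, Cacng8, Shisa6 and Shisa7) and 1 over input (Frrs1l), and 0 and 1 were called lower. The shares of all tested genes called higher were 13.4% and 14.6%, and those called lower 13.5% and 15.5%. The list's median was 0.52 against IgG RIP but 0.02 against input, and 3 of the 14 were called in IgG RIP over input as lower (Cacng3, Cnih2 and Shisa7), against 5.01% of all genes. The one lower than input in CELF2-KI RIP was Cnih2, a cornichon that aids export of AMPA receptors, with 66.2 to 88.9 CPM in CELF2-KI RIP, 73.1 to 82.4 CPM with IgG and 167 to 171 CPM in input.

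Nptx1, which encodes a secreted pentraxin that gathers AMPA receptors at synapses, had 112, 145 and 118 CPM in CELF2-KI RIP, 39.3, 36.3 and 33.0 CPM with IgG and 51.2, 49.7 and 49.8 CPM in input. It rose by 1.79 (SE 0.13, FDR 8.14e-06 by edgeR) and 1.32 (SE 0.13, FDR 1.83e-05 by edgeR). Dlg4, which encodes the postsynaptic scaffold PSD-95, was the gene lower than both controls, with 111, 90.5 and 100 CPM in CELF2-KI RIP, 250.5, 263 and 266 CPM with IgG and 307, 284 and 338 CPM in input. It fell by 1.37 (SE 0.11, FDR 1.15e-05 by edgeR) and by 1.62 (SE 0.11, FDR 3.06e-06 by edgeR) on the log2 scale. The trafficking list that holds both had 3 of 13 called higher (Nptx1, Nptx2 and Nptxr), against 13.4% of all genes, and 1 lower, against 13.5%, over IgG RIP. Over input it had 2 higher (Nptx1 and Akap5), against 14.6%, and 1 lower, against 15.5%. Its medians were 0.07 and 0.50.

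Grin2b, which encodes the GluN2B subunit of NMDA receptors and is the main form before birth, had 1605, 2543 and 1957 CPM in CELF2-KI RIP, 1113, 969 and 892 CPM with IgG and 950, 910 and 934 CPM in input. It rose by 1.04 (SE 0.16, FDR 0.000349 by edgeR) and 1.13 (SE 0.16, FDR 0.000181 by edgeR), and was the one target among 9 NMDA and delta receptor subunits, whose medians were 0.35 and 0.46. It stayed a target in 6 of 9 leave-one-out fits but in only 3 of 12 other alternatives, against 11 of 13 for Frrs1l and 10 of 13 for Nptx1. Of the editing enzymes, Adarb1, which encodes the ADAR2 that edits Gria2 mRNA, had 90.7, 106 and 118 CPM in CELF2-KI RIP, 63.7, 72.6 and 71.5 CPM with IgG and 52.6, 48.9 and 51.7 CPM in input. It rose past 2-fold over input (1.04, SE 0.12, FDR 5.42e-05 by edgeR) and by 0.60 over IgG RIP (SE 0.12, FDR 0.00195 by edgeR). Neither of the kainate receptor auxiliary subunits was called in CELF2-KI RIP over IgG RIP or over input, and by edgeR 1 of them, Neto1, was higher over input with no fold limit (0.95, FDR 0.000393). Neto1 was also higher in IgG RIP than in input, by 1.34 (FDR 0.000266 by edgeR), and its difference in CELF2-KI RIP over IgG RIP was -0.39 (FDR 0.0538 by edgeR). Celf2 itself, the mRNA of the protein pulled down, had 470 to 797 CPM in CELF2-KI RIP against 200 to 267 CPM with IgG and 278 to 305 CPM in input.

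**Figure D4:**
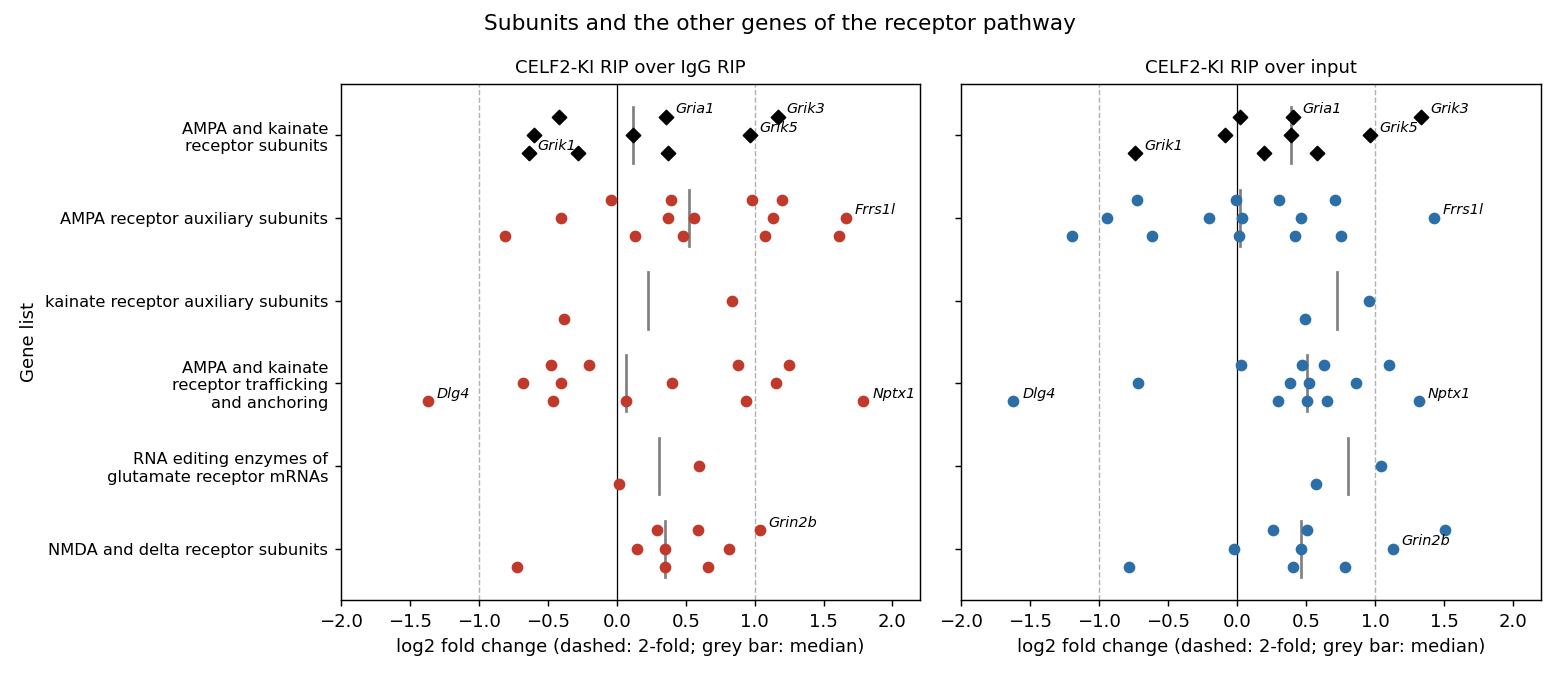
Log2 fold changes in CELF2-KI RIP over IgG RIP (left) and over input (right) for the 9 subunits (diamonds) and the 40 genes of the 5 pathway lists (circles), 1 list per line, with medians as grey bars and 2-fold as dashed lines. The CELF2-KI RIP libraries enter both panels. Labelled are Gria1, Grik1, Grik3 and Grik5 and the listed genes higher or lower than both controls, which are Frrs1l, Nptx1, Grin2b and Dlg4 at 1.66, 1.79, 1.04 and -1.37 over IgG RIP.

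Likeness of pattern was taken as Pearson's r of log2 CPM over the 9 libraries, which share their scaling and fall into the 3 groups, so r mainly records group differences and is given as a description. The tested genes most like Grik3, the subunit with the highest difference over IgG RIP, were Lrp8, a receptor for reelin (r = 0.995), Camkk2, a kinase that activates other calmodulin-dependent kinases (r = 0.995), and Tle1, a transcriptional corepressor (r = 0.995). Those most like Grik1, the subunit with the lowest, were Churc1 (r = 0.980), Ift43, a component of intraflagellar transport (r = 0.980), and Cfap20dc (r = 0.974). Among the subunits, r was 0.96 between Grik3 and Grik5 and also between Gria1 and Grik5, 0.87 between Gria4 and Grik2, and -0.78 between Grik1 and Grik5.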

How the data were processed

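Per the paper's methods, libraries were directional and rRNA-depleted, reads were checked with FastQC 0.11.9, trimmed with fastp 0.23.4, cleared of rRNA with Ribodetector 0.3.1 and pseudoaligned with kallisto 0.51.1. The authors deposited estimated counts, 1 row per RefSeq transcript and 1 column per library, normalized neither for depth nor for transcript length. The submitters' processing notes name mm10, and the methods name an Ensembl transcriptome, while the rows carry RefSeq accessions. All 9 columns were used, and 0 were left out.

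A RefSeq table of GRCm38.p6 assigned rows to genes by accession without its version (86714 of 107384 matched) and gave names and coordinates. Of the 115 reference transcripts of the 9 genes, 35 had no row, and 8 of the 80 rows carried the reference's version. Per gene, the estimated counts were added up and rounded. Protein-coding genes reaching 0.5 CPM in 3 or more libraries were tested with edgeR 4.0.16 in R 4.3.3 (glmQLFit and glmQLFTest, TMM, a mean per group, all 9 libraries in a single fit). Transcripts were tested the same way after a filter of their own, and shares with diffSpliceDGE. The study names edgeR 4.4.0, a CPM threshold, an FDR of 0.01 and 2-fold, but not the test or the threshold's value. Alternatives used limma 3.58.1, DESeq2 1.42.0 (1.46.0 in the study), Python 3.11.15, pandas 2.3.3 and matplotlib 3.10.9. Intervals are 95% and come from the model. The fits were also run on simulated data. For single transcripts that simulation had a smaller spread than these data and held only well-counted transcripts, so it does not speak for their tests here.

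The members, lists, rules and tests were chosen with earlier results of these data known. Genes named are the 9 members with their transcripts, listed pathway genes higher or lower than both controls, the 3 nearest genes by r for the highest and the lowest member, and Celf2. Further listed genes and markers are named as the makeup of a count or as examples, chosen after their values were seen. Of the excitatory neuron markers, 1 gene is not reported here and was left out of their sum.

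Groups share replicate numbers. Deviations of same-numbered CELF2-KI RIP and input libraries from their group means correlated at r = 0.185, 0.122 and 0.212 (11532 genes). This likeness was weak, and libraries of unlike number were not compared, so it does not settle whether the numbers pair these groups. For CELF2-KI RIP and IgG RIP r was -0.070, 0.039 and -0.009, and for IgG RIP and input 0.086, 0.064 and 0.006. No pairing of IgG RIP with either was seen, though 3 libraries per group cannot exclude it. P-values measure the spread between these libraries only.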

Additional observations from a re-analysis of the deposited data

How the results depend on the processing

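The threshold of 2-fold depended on the scaling of the libraries. Of the 9 members, the number called higher over IgG RIP, 1 as reported, was 0 on scaling to total counts, upper quartile or all-gene TMM (coding and noncoding genes together), and 0 in a test against 2-fold (glmTreat). The number called higher over input, also 1, was 0 under total counts, all-gene TMM or glmTreat and 2 with curated transcripts only. Targets numbered 0 under total counts, the upper quartile, all-gene TMM or glmTreat. With only transcripts of the reference's version the 1 target was Gria3, and Grik3 had no such transcript. Members called lower numbered 1 over IgG RIP under total counts, 1 over input under total counts or all-gene TMM, and 1 in IgG RIP over input with only transcripts of the reference's version. Of the 40 pathway genes, 3 were targets as reported, 0 under total counts or glmTreat and 1 under all-gene TMM. With the replicate block, which covers all 3 groups, 2 members lost a call at an FDR under 0.01 by edgeR. They were Gria1 over IgG RIP (0.36, FDR 0.0135 by edgeR) and Grik1 over input (-0.74, FDR 0.0107 by edgeR). No other call of a member gene changed. Single transcripts depended on more settings. Of the 55, 3 were called higher over IgG RIP as reported, 1 with the replicate block, 0 under glmTreat or a fit of the 2 groups compared, 5 on the scaling of gene sums or at an FDR under 0.05, and 6 by DESeq2 or with IgG RIP 3 as the only IgG library. Over input, 0 were called as reported, 1 under DESeq2 size factors, the upper quartile, all-gene TMM or an FDR under 0.05, 4 on the scaling of gene sums and 5 by DESeq2. A changed share was called over IgG RIP for 2 transcripts with IgG RIP 3 as the only IgG library, and over input for 1 with that library alone, with the 2 groups compared or at an FDR under 0.05. The scaling of gene sums and the single IgG library were chosen after the data were seen.

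Leaving out 1 library at a time gave 1 to 2 members called higher over IgG RIP (2 without IgG RIP 1, where Grik5 reached 1.04), 0 to 1 called higher in IgG RIP over input, 1 to 4 transcripts called higher over IgG RIP and 0 to 1 over input, and 0 to 1 with a changed share over IgG RIP. The difference of Gria3 ranged over these fits from -0.46 to 0.027 over IgG RIP, from -0.21 to 0.058 over input and from -0.11 to 0.37 in IgG RIP over input, that of Gria4 over input from -0.076 to 0.065, and in IgG RIP over input that of Grik1 from -0.25 to 0.12 and of Grik5 from -0.076 to 0.046.

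Other signs turned for members near 0 or made of several transcripts, and the cause was not tested. Over IgG RIP, Gria1 was -0.0065, Gria2 -0.26 and Grik4 -0.017 under total counts, and Gria2 was -0.15 under the upper quartile and -0.10 under all-gene TMM. With curated transcripts only, Gria2 was -0.30, Gria4 0.72 and Grik2 0.10, and with transcripts of the reference's version Gria3 was 7.74, resting on 1 transcript at the floor in IgG RIP, and Gria4 0.51. Over input, total counts gave -0.053 for Gria1, -0.080 for Gria2, -0.44 for Gria4 and -0.27 for Grik2, and all-gene TMM gave -0.0047 for Gria2, -0.37 for Gria4 and -0.20 for Grik2. The upper quartile gave -0.22 for Gria4 and -0.045 for Grik2, curated transcripts only -0.042 for Gria2, -0.076 for Gria4 and -0.34 for Grik2, and the 2 groups compared -0.20 for Gria4 and -0.032 for Grik2. Gria4 was also -0.11 under DESeq2 size factors and by DESeq2, -0.094 without a filter and -0.085 with IgG RIP 3 alone, and Gria3 was 2.17 with transcripts of the reference's version. In IgG RIP over input, Gria1 was -0.026 under DESeq2 size factors and by DESeq2, -0.047 under total counts and -0.13 under all-gene TMM, and Grik3 -0.0090 under the last and -0.0057 with IgG RIP 3 alone. Grik5 was 0.021 under the upper quartile, 0.12 with curated transcripts only and 0.063 with those of the reference's version. The same pair of settings gave -0.80 and -0.30 for Gria4 and -0.96 and -1.02 for Grik4, with -0.10 for Grik4 under IgG RIP 3 alone, curated transcripts only gave -0.43 for Grik2, and those of the reference's version gave -5.58 for Gria3. Of the tested transcripts, 5 were at or under 3 counts in all IgG RIP libraries, 3 in all CELF2-KI RIP libraries and 1 in all input libraries. The part of depth in these low counts was not tested.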

Other observations

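The kind of transcript that held the counts differed between groups for some members. Noncoding transcripts of Gria1 took 8.68% to 10.8% of the gene's estimated counts in CELF2-KI RIP and 9.23% to 12.1% in IgG RIP, above the 2.37% to 5.78% of input. In Gria4, curated mRNAs took 50.4% to 61.5% in CELF2-KI RIP and 56.6% to 60.2% in input but 18.6% to 23.9% in IgG RIP, and noncoding transcripts reached 45.9% in IgG RIP 3. Curated mRNAs of Grik2 took 32.1% to 44.1% in CELF2-KI RIP, 15.7% to 25.8% in IgG RIP and 50.7% to 62.8% in input, 3 groups that did not overlap. Over all 9 genes together, noncoding transcripts took 2.78% to 4.14% in CELF2-KI RIP, 6.24% to 7.91% in IgG RIP and 1.89% to 3.56% in input. These shares come from estimates that divide shared reads, and they were noticed in the data and not tested.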
